A study of Mus musculus with 12 samples.

Results

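The comparison described here set mouse bone marrow cells given a construct labelled M33-MEIS1 against the same kind of cells given full-length MEIS1 (MEIS1-WT). The 6 arrays, 3 of each group, were taken by their titles from the 12 arrays of the series, and 45037 of the 45101 probe sets on the array were compared, the other 64 being array controls. Monocyte, neutrophil and mast cell genes were higher with M33-MEIS1, among them Csf1r, whose mean signal was 32.3 with MEIS1-WT and 634 with M33-MEIS1. Genes tied to MEIS1 in leukaemia were lower with M33-MEIS1, among them Dlk1, Hlf and Flt3, and so were several immediate early genes. Genes of the cell cycle, of the Hoxa cluster and of the Polycomb complexes gave no call in either direction on the probe set read for each gene.

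MEIS1 is a homeodomain protein of the TALE class, which binds DNA together with HOX proteins and PBX partners, and it speeds leukaemia in mouse marrow that carries a HOX gene or a NUP98-HOX fusion. NUP98-HOXD13 joins part of a nuclear pore protein to the homeodomain of HOXD13, and it blocks the maturation of myeloid progenitors without giving leukaemia quickly. M33 is the former name of Cbx2. It is a chromodomain subunit of Polycomb repressive complex 1, which keeps developmental genes silent by binding chromatin that carries a repressive histone mark. A fusion of M33 to a transcription factor would bring a Polycomb protein to the sites of that factor, but the labels do not say which parts of M33 and of MEIS1 were joined.

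Cells of every group carried NUP98-HOXD13. They came from bone marrow of (C57Bl/6Ly-Pep3b x C3H/HeJ) F1 mice treated with 5-fluorouracil, which removes cycling cells, and were infected with an ND13-GFP or ND13pac virus and grown for 4 weeks in medium with 15% serum and with recombinant cytokines, namely 100 ng/ml stem cell factor and 6 ng/ml IL-3, both of mouse, and 10 ng/ml human IL-6. The second vector entered during 2 days on E86 fibroblasts that release the virus, irradiated with 4000 cGy, with protamine sulfate at 5 µg/ml. It coded for MEIS1-WT, for M33-MEIS1, for a form labelled MEIS1-deltaHD, or for yellow fluorescent protein alone (MIY-ctrl). The last pair of groups, with 3 arrays each, are set beside the comparison. They are given as levels, as differences from MIY-ctrl and as calls of M33-MEIS1 against each of them. RNA came from sorted cells, and the design text states independent experiments for each condition. The age of the mice, the gate of the sort, the time from the second infection to the RNA and the NUP98-HOXD13 virus held by each line are not stated by the labels, and all groups are cultures with retroviral vectors, not marrow in the animal.

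Signals are the authors' values on a linear scale, with each array scaled to the same trimmed mean of 100. Log2 differences are M33-MEIS1 minus MEIS1-WT on log2(signal + 16), a scale that makes the changes of dim probe sets smaller than the ratios of their signals, and a value after ± beside one is its standard error (SE). Adjusted p-values are from limma with Benjamini-Hochberg adjustment over all 45037 probe sets, and a probe set or gene passed at an adjusted p below 0.05. Level pairs such as 32.3 ± 5.86 and 634 ± 19.8 for Csf1r are the mean ± SD of the 3 MEIS1-WT and the 3 M33-MEIS1 arrays. The number of arrays limits the precision, and p-values measure the spread between these cultures.

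The median signal was 14.2 to 15.3 on the MEIS1-WT arrays and 13.998 to 16.006 on the M33-MEIS1 arrays. The ratio of the 3′ to the 5′ actin probe sets, a sign of RNA quality, was 1.44 to 1.48 and 1.31 to 1.44, and that of Gapdh was 0.822 to 0.838 and 0.830 to 0.882. The first principal component over all probe sets held 34.5% of the variance and separated the groups, with MEIS1-WT at -30.1 to -25.1 and M33-MEIS1 at 18.5 to 43.6. The second component, with 20.3%, set M33-MEIS1 replicate 3 apart at 36.3, with replicates 1 and 2 at -32.7 and -19.8. Without that array 1002 probe sets passed, against 1432 with it, and 17 monocyte, 13 mast cell, 8 primary granule and 9 later granule genes were higher and 11 Meis1-linked and 9 immediate early genes lower in the gene lists used here.

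Of the 45037 probe sets, 1432 passed (3.18%), with 891 higher (1.98%) and 541 lower (1.20%) with M33-MEIS1. Counting 1 probe set for each of 18193 genes with a symbol, 553 genes were higher (3.04%) and 293 lower (1.61%). A log2 difference of at least 1 was reached by 169 of the higher and 55 of the lower genes, and of at least 2 by 28 and 6. The median log2 difference over all probe sets was -0.0044, and 6011 had an unadjusted p below 0.05. The 3 arrays of one construct lay beyond all 3 of the other in 17.6% of all probe sets, which is the background for groups that did not overlap. Under other normalizations, filters and left-out arrays the total ranged from 989 to 1759, and the higher calls made up 60.5% to 65.4% of it. Against the MIY-ctrl arrays 8503 probe sets passed with M33-MEIS1 (18.9%), and against MEIS1-deltaHD 83 (0.184%). These 3 comparisons share the M33-MEIS1 arrays and are given side by side only.

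**Figure D1:**
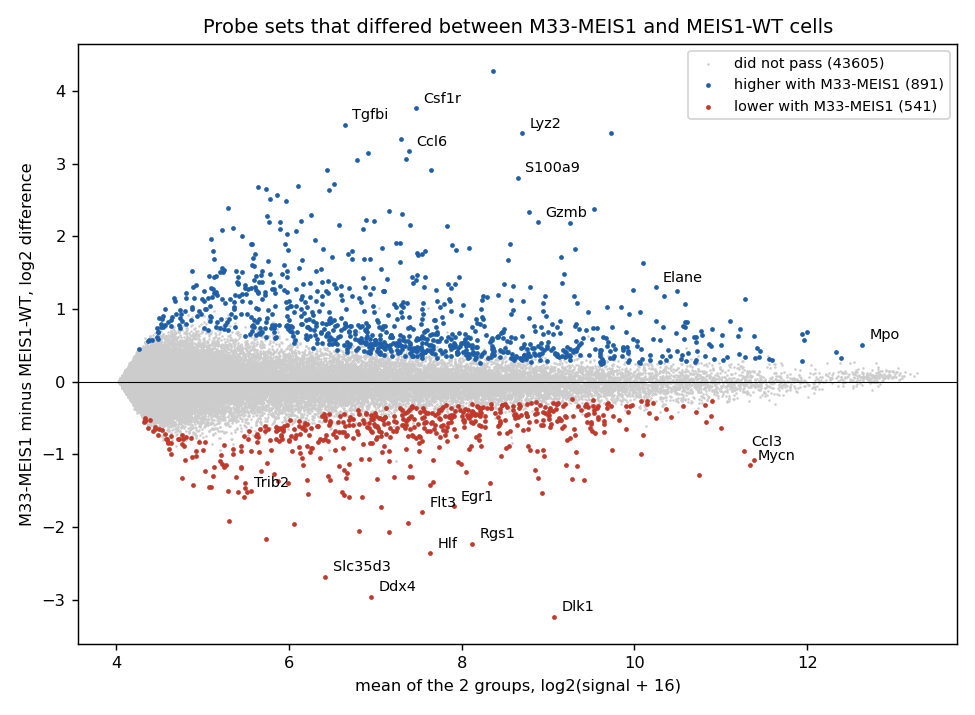
Log2 difference of each of the 45037 probe sets (M33-MEIS1 minus MEIS1-WT, vertical axis) against the mean of log2(signal + 16) over both groups (horizontal axis). The 891 probe sets that passed as higher are blue, the 541 that passed as lower are red and the others are grey; Csf1r, Tgfbi and Lyz2 lie near the top and Dlk1, Ddx4 and Slc35d3 at the bottom.

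A probe set of Cbx2 differed between the constructs. It read 10.9, 14.7 and 5.02 on the MEIS1-WT arrays and 40.9, 59.8 and 53.1 on the M33-MEIS1 arrays, with means of 7.12 in MIY-ctrl and 11.4 in MEIS1-deltaHD, and the groups did not overlap (log2 difference 1.37 ± 0.22, adjusted p = 0.000973). The brighter Cbx2 probe set was at 64.9 ± 7.47 and 63.9 ± 10.3 (log2 difference -0.02 ± 0.17, adjusted p = 0.981). Where both probe sets lie relative to the part of M33 in the construct is not given, so the first reading bears on the label only as far as that probe set lies inside it. The 3 Meis1 probe sets gave differences of -0.24, -0.22 and 0.21 with none passing, and the brightest read 129, 145 and 148 with MEIS1-WT, 133, 113 and 104 with M33-MEIS1 and 205, 189 and 168 with MIY-ctrl. It was highest with the control vector, and so gives no check of the introduced gene. Both Hoxd13 probe sets read at most 17.5 on all 6 arrays.

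Genes tied to MEIS1 in leukaemia were lower with M33-MEIS1. Of a list of 16 such genes, all measured, 11 fell and 0 rose, with a median log2 difference of -0.89, against 1.61% of all genes called lower and a median of -0.0017 over all genes. Trib2 and Ccl3 are named in the title of the series, so their direction is not independent evidence. This list, like the others below, was chosen with earlier results of these data known, so its count is not independent evidence either. Against MIY-ctrl the list's median was 0.83 with MEIS1-WT and -0.39 with M33-MEIS1. The count was 10 to 13 under the alternatives.

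Dlk1, a membrane protein related to Notch ligands, had the largest fall. Its signal was 1769, 1425 and 1704 on the MEIS1-WT arrays and 144, 162 and 170.5 on the M33-MEIS1 arrays. The groups stood far apart, and the M33-MEIS1 arrays also lay below the control vector, at 226, 248 and 305 (log2 difference -3.23 ± 0.11, adjusted p = 3.43e-12). The mean with MEIS1-deltaHD was also below the control vector, at 109 ± 7.11. This probe set is of a kind that can share probes with other transcripts, and the second Dlk1 probe set, without shared probes, fell as well, from 25.9 ± 3.70 to 4.62 ± 3.43. Trib2, a pseudokinase that promotes decay of the C/EBPα protein, read 53.8, 75.7 and 55.2 with MEIS1-WT and 11.4, 13.2 and 8.19 with M33-MEIS1. No array overlapped (log2 difference -1.52 ± 0.22, adjusted p = 0.000347), but this probe set is also of that kind. The Trib2 probe set without shared probes was dim and did not pass, at 11.2 ± 1.87 and 3.28 ± 2.67 (log2 difference -0.50 ± 0.18, adjusted p = 0.177).

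The promoters of a pair of genes that were lower with M33-MEIS1 and of a pair that were higher are shown, because MEIS1 is known to bind the letters TGACAG, and TGATTGAC where it binds beside a PBX protein. Each runs from 250 bases before to 50 after the RefSeq start, 5′ to 3′ on the strand of the gene, on build GRCm38.p6, and capitals mark TGACAG on either strand. Dlk1 lies at chr12:109452573-109452872 on the plus strand, Trib2 at chr12:15816736-15817035, Lyz2 at chr10:117282223-117282522 and S100a9 at chr3:90695672-90695971, all on the minus strand.
Dlk1 promoter: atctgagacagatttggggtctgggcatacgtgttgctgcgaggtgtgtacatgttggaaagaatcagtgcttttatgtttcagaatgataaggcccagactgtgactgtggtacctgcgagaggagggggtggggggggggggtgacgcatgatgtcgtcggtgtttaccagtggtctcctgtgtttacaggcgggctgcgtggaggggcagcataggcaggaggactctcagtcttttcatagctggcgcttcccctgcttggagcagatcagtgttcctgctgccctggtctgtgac
Trib2 promoter: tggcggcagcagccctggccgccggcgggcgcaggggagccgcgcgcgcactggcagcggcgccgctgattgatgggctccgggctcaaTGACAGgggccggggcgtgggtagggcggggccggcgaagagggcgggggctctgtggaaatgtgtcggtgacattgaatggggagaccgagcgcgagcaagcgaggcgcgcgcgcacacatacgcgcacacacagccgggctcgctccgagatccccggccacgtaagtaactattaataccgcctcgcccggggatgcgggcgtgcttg
Lyz2 promoter: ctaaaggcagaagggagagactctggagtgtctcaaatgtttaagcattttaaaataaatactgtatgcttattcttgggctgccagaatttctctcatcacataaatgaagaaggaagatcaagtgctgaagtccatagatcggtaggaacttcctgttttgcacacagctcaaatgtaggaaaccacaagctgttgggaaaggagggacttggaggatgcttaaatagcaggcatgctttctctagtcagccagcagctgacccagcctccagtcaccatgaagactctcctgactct
S100a9 promoter: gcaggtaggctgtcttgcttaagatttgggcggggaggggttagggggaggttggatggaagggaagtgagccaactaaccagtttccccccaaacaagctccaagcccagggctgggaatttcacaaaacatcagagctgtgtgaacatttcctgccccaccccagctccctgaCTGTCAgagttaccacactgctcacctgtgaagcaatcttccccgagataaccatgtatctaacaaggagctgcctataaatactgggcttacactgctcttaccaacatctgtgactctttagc
Trib2 and S100a9 held 1 match each, the latter on the opposite strand, and Dlk1 and Lyz2 none. Further windows were looked at, and those of Flt3, Hlf, Ccl3, Meg3, Kit, Ddx4, Slc35d3, Irf8, Ctss, Cybb, Mpeg1 and Tgfbi held none. The windows shown thus do not give the share of windows with a match. Over the 18109 such windows found for 14452 genes of the array, 17.8% held TGACAG, counted on both strands. The share was 19.5% of 569 windows of genes that rose and 19.0% of 326 windows of genes that fell. Of the windows of genes with a change of at least 1 on the log2 scale, 15.5% of 161 (higher) and 24.0% of 50 (lower) held it. TGATTGAC was in 0.823% of all windows, in 1 window of the genes that rose and in 4 of those that fell. A match describes the letters of the window and is no site of binding.

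Flt3 and Kit, receptor tyrosine kinases of early progenitors, were both lower. Flt3 read 317, 305 and 372 with MEIS1-WT and 67.6, 91.4 and 94.1 with M33-MEIS1, and Kit 544, 520.2 and 409.7 with MEIS1-WT and 245, 267 and 260.4 with M33-MEIS1. Neither gene's groups overlapped, and in both the M33-MEIS1 mean lay under that of the control vector, 158 for Flt3 and 397 for Kit (log2 differences -1.80 ± 0.13 and -0.88 ± 0.09, adjusted p = 7.04e-08 and 7.38e-06). The MEIS1-deltaHD means were below the control vector too, at 117 ± 16.8 and 308 ± 8.20. Only 1 of 2 Kit probe sets passed. Hlf, a PAR bZIP factor of haematopoietic stem cells, read 427, 416 and 455 with MEIS1-WT and 79.99, 75.5 and 60.2 with M33-MEIS1. The fall was -2.36 ± 0.13 on the log2 scale (adjusted p = 4.02e-09), with the control vector at 197 ± 45.3 between the groups. The MEIS1-deltaHD mean was also below that of the control vector, at 102 ± 11.9. Msi2, an RNA-binding protein of stem cells, fell by 0.89, and Mecom, which codes for the factor EVI1, fell by 0.68 on the same scale. Mecom and Msi2 had no overlapping arrays.

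The chemokines Ccl3 and Ccl4, which attract monocytes and T cells and lie beside each other on chromosome 11, were lower. Ccl3 was 3487, 3218 and 3588 with MEIS1-WT and 1794, 1885 and 1594 with M33-MEIS1, where the control vector gave 1693, 1833 and 1476 and MEIS1-deltaHD 1607, 1739 and 2498. The M33-MEIS1 arrays thus lay within the range of the control and MEIS1-deltaHD arrays and below all MEIS1-WT arrays (log2 difference -0.96 ± 0.13, adjusted p = 0.000113). Ccl4 went from 349 ± 66.4 to 152 ± 16.4 (log2 difference -1.11 ± 0.20, adjusted p = 0.0027). Rgs1, which shortens signalling by G-protein-coupled receptors, read 607, 499 and 653 with MEIS1-WT and 134, 91.9 and 112 with M33-MEIS1 (log2 difference -2.23 ± 0.22, adjusted p = 4.44e-06). Its groups did not overlap.

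Pf4, the platelet chemokine, passed with overlapping arrays, at 1624, 1037 and 1525 with MEIS1-WT and 720.5, 694 and 1083 with M33-MEIS1 (log2 difference -0.74 ± 0.18, adjusted p = 0.0271). Its call was lost without MEIS1-WT replicate 1 or 3 or M33-MEIS1 replicate 1 or 2, with an adjusted p of 0.121 to 0.153, with the 6 arrays alone (0.0695) and without an intensity trend (0.134). The 5 members of the list that did not pass were Sox4 at -0.02, Myb at -0.01, Cd34 at -0.23, Hmgb3 at -0.25 and Erg at -0.42. For Sox4 and Myb, factors of dividing progenitors, the 95% intervals were -0.19 to 0.14 and -0.17 to 0.15.

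**Figure D2:**
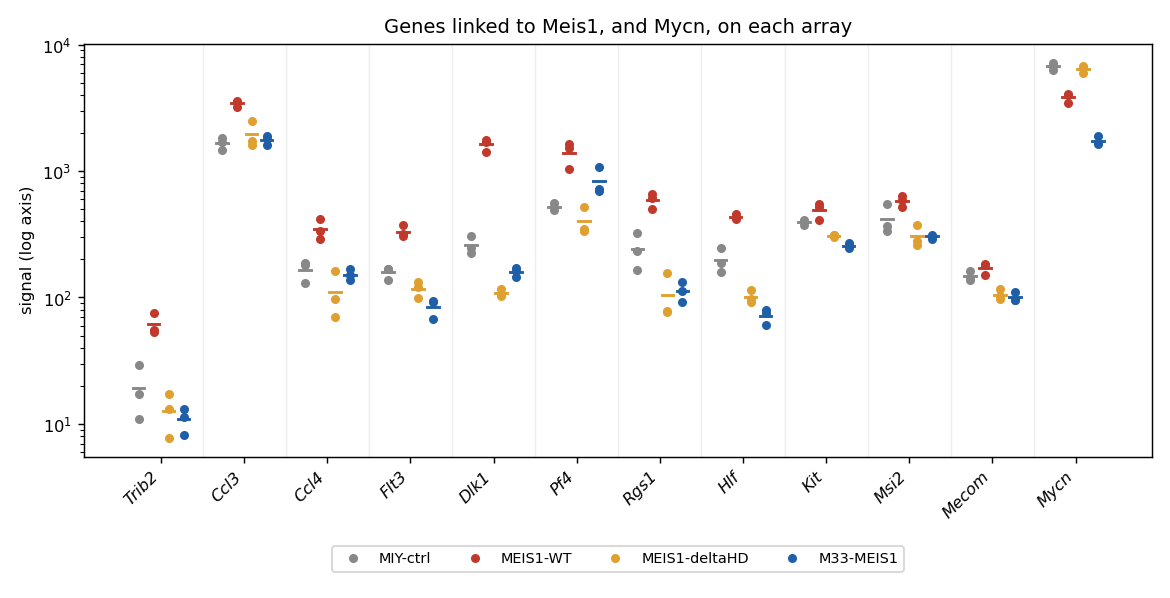
Signal on each array (log axis) of the 11 list members that passed and of Mycn, with points for the 3 arrays of MIY-ctrl (grey), MEIS1-WT (red), MEIS1-deltaHD (orange) and M33-MEIS1 (blue) and a bar at the mean of each group. The red points lie above the blue ones for every gene but Pf4, whose arrays overlap.

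Several of the largest falls were in genes outside that list. Ddx4, an RNA helicase of germ cells, was 322, 349 and 310.0 with MEIS1-WT and 20.8, 34.9 and 29.9 with M33-MEIS1. Slc35d3, which is needed for platelet dense granules, was 207, 174 and 224 with MEIS1-WT and 17.4, 18.6 and 17.2 with M33-MEIS1. In both genes the M33-MEIS1 arrays lay near or below the control vector, at 51.2 ± 22.99 and 16.6 ± 4.81 (log2 differences -2.96 ± 0.19 and -2.68 ± 0.18). MEIS1-deltaHD was at 27.3 ± 2.58 and 14.2 ± 5.70. P2rx3, an ATP-gated ion channel, had another order: the control vector was highest at 1174 ± 172, MEIS1-WT next at 277 ± 43.8 and M33-MEIS1 at 53.5 ± 6.86, with all 3 of its probe sets lower with M33-MEIS1. With MEIS1-deltaHD it was 46.3 ± 5.07. Rasgef1b, an exchange factor for small GTPases, Clnk, an adaptor of immune receptors, Ptprg, a receptor phosphatase, Cpeb2, a regulator of translation, and Abcb1a, a drug efflux pump, fell by 1.94, 1.59, 1.59, 1.72 and 1.59 on the log2 scale. All 5, which were chosen for it, had MEIS1-WT arrays above every M33-MEIS1 array, where 17.6% of all probe sets had no overlap. Of 4 Ptprg probe sets 2 passed as lower.

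Meg3, a maternally expressed non-coding RNA, lies in the same imprinted domain of chromosome 12 as Dlk1, which is expressed from the paternal copy. The brightest of its 11 probe sets, which can share probes with other transcripts, read 115, 98.4 and 131 with MEIS1-WT and 19.05, 13.2 and 20.7 with M33-MEIS1 (log2 difference -1.96 ± 0.17, adjusted p = 6.04e-07), and 5 of the 11 passed as lower and 0 as higher. Of the further transcripts of the domain, looked at after the values of Dlk1 and Meg3 were seen, 1 of 2 Mirg probe sets passed as lower, from 16.3 ± 1.94 to 2.16 ± 0.906, and 0 of 4 Rian probe sets passed. The brightest Rian probe set was at 24.5 ± 3.27 and 11.4 ± 2.41 (adjusted p = 0.179). Plagl1, an imprinted zinc finger gene of chromosome 10, fell by 1.92 on a probe set that can share probes with other transcripts, and the probe set without shared probes was at 9.19 ± 5.18 and 16.98 ± 5.24 (log2 difference 0.40 ± 0.21, adjusted p = 0.455).

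Monocyte and macrophage genes were higher with M33-MEIS1. Of 22 genes of the list, all measured, 18 rose and 0 fell, where 3.04% of all genes were called higher, and the median log2 difference was 1.32. The summed signal of the list was 4119 to 4482 on the MEIS1-WT arrays, 11645 to 13642 on the M33-MEIS1 arrays and 31711 on average in MIY-ctrl. Against MIY-ctrl the median was -2.38 with MEIS1-WT and -1.47 with M33-MEIS1. The sorted cells of a culture were measured together, so fewer cells of a type and less RNA per cell cannot be told apart.

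Csf1r, the receptor for macrophage colony-stimulating factor, had the largest rise of all genes. Its signal was 34.3, 36.9 and 25.7 on the MEIS1-WT arrays, 618, 628 and 656 on the M33-MEIS1 arrays and 1521, 1544 and 1707 on the control arrays. The M33-MEIS1 arrays lay between the others with no overlap on either side (log2 difference 3.76 ± 0.09, adjusted p = 2.27e-14), and all 3 Csf1r probe sets passed. Lyz2, the lysozyme of macrophages and neutrophils, read 126, 101 and 107 with MEIS1-WT, 1327, 1241 and 1467 with M33-MEIS1 and 5307, 5527 and 5339 with MIY-ctrl. It kept the same order (log2 difference 3.42 ± 0.08, adjusted p = 2.27e-14). Lyz1, its near-identical neighbour, rose by 3.42 on a probe set with shared probes, while the probe set without them was at 7.67 ± 4.29 and 7.55 ± 5.52 (log2 difference -0.02 ± 0.23, adjusted p = 0.989), so the Lyz1 reading cannot be separated from Lyz2.

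Tgfbi, a secreted matrix protein of macrophages, went from 5.57, 19.5 and 16.5 with MEIS1-WT to 341, 330.2 and 295 with M33-MEIS1. Ctss, the lysosomal protease that trims the class II invariant chain, went from 58.7, 46.00 and 66.9 with MEIS1-WT to 519, 490.3 and 582 with M33-MEIS1. In both, M33-MEIS1 stayed below the control vector, at 1581 ± 90.6 and 2529 ± 303 (log2 differences from MEIS1-WT 3.53 ± 0.14 and 2.91 ± 0.12). Mpeg1, a pore-forming protein of phagocytes, had a wider spread in MEIS1-WT, at 47.3, 11.7 and 18.3, and read 323, 311 and 359 with M33-MEIS1 (log2 difference 3.14 ± 0.21). The rises of Ms4a6d, Cd68, Cd14 and Adgre1, which codes for the F4/80 antigen, were 2.70, 1.41, 1.13 and 0.96. The 4 members that did not pass were Cx3cr1 at 0.60, Fcgr4 at 0.14, Ms4a7 at 0.52 and Mrc1 at 0.54, none of which read above 36.3 on any of the 6 arrays.

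Outside the list, Ifitm6, Serpinb9g and F13a1 were among the 15 largest rises. F13a1, the A chain of clotting factor XIII, which monocytes carry, read 44.6, 38.1 and 39.3 with MEIS1-WT and 449.6, 411 and 517 with M33-MEIS1. Ifitm6, an interferon-inducible membrane protein, read 43.01, 25.2 and 32.5 with MEIS1-WT and 425, 468 and 554 with M33-MEIS1, and Serpinb9g, a serine protease inhibitor, 7.42, 2.50 and 13.5 with MEIS1-WT and 164, 127 and 87.1 with M33-MEIS1. The groups did not overlap, as the rule that chose these genes requires (log2 differences 3.06 ± 0.17, 3.34 ± 0.11 and 2.57 ± 0.21).

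Genes of the neutrophil granule lists rose as well, though not all of them code for granule contents. Of the 11 measured genes of the primary granule list 8 rose and 0 fell, with a median of 0.66, and of 15 measured genes of the later granule list 9 rose and 0 fell, with a median of 1.31, against 3.04% of all genes higher. Elane, the neutrophil elastase, was 761, 785 and 726 with MEIS1-WT and 2041, 1793 and 1845 with M33-MEIS1. The control vector lay at 800.0, 402 and 1016, so M33-MEIS1 was above both groups (log2 difference from MEIS1-WT 1.30 ± 0.20, adjusted p = 0.000709). With MEIS1-deltaHD Elane was at 2174 ± 209, and M33-MEIS1 did not pass against it (log2 difference -0.20, adjusted p = 0.849). Mpo, the myeloperoxidase of primary granules, was 5578, 5169 and 5211 with MEIS1-WT and 7375, 6927 and 8473 with M33-MEIS1, a smaller step of 0.51 ± 0.08 without overlap. Prtn3 and Ctsg, serine proteases of the same granules, rose by 0.66 and 0.41. The other 4 that passed are membrane proteins of myeloid cells and not granule contents: Igsf6 (2.71), of the immunoglobulin superfamily, Mgst2 (1.80), a microsomal glutathione transferase, Clec5a (1.77), a lectin receptor, and Ms4a3 (1.14).

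S100a9 and S100a8, the subunits of calprotectin, were higher than in every other group's mean. S100a9 was 120.1, 139 and 149 with MEIS1-WT, 1036, 947 and 1150.3 with M33-MEIS1, 341, 257 and 424 with MIY-ctrl and 749, 893 and 657 with MEIS1-deltaHD. The M33-MEIS1 arrays lay above all others (log2 difference from MEIS1-WT 2.80 ± 0.14, adjusted p = 1.15e-09). Against MEIS1-deltaHD, S100a9 did not pass (log2 difference 0.445, adjusted p = 0.314). S100a8 went from 308 ± 26.2 to 1660.3 ± 133, with 949 ± 338 in MIY-ctrl. With MEIS1-deltaHD it was at 1298 ± 186, and that difference did not pass either (adjusted p = 0.585). Ngp, a cathelicidin-like granule protein, went from 39.2, 45.02 and 31.9 with MEIS1-WT to 204, 243 and 274 with M33-MEIS1, also above the control vector at 61.7 ± 11.3. Mmp8, the neutrophil collagenase, and Cybb, the catalytic subunit of the phagocyte oxidase, rose by 2.33 and 3.06 and stayed below the control vector, at 962 ± 87.95 against 3746 ± 83.2 and 304 ± 40.95 against 1172 ± 282. Ltf, Mmp9, Cd177 and Olfm4, which mark later neutrophils, read at most 20.7 on any of the 6 arrays, and Camp was at 5.88 ± 6.67 and 27.5 ± 15.2 (adjusted p = 0.0559).

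**Figure D3:**
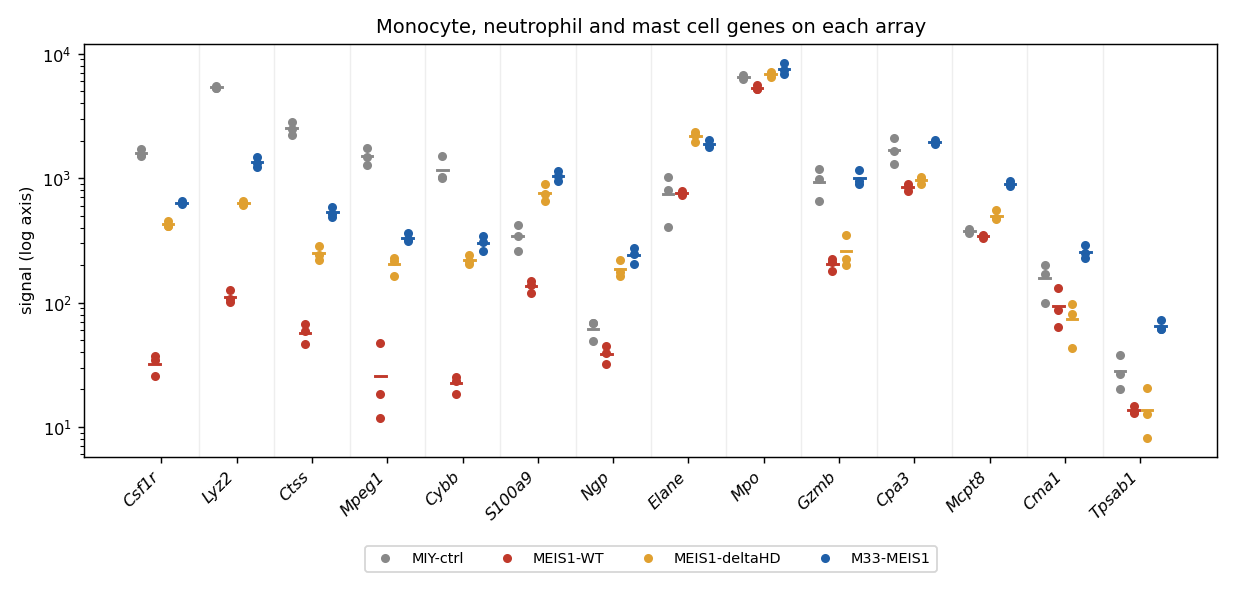
Signal on each array (log axis) of 14 monocyte, neutrophil and mast cell genes, with points for the 3 arrays of MIY-ctrl (grey), MEIS1-WT (red), MEIS1-deltaHD (orange) and M33-MEIS1 (blue) and a bar at each mean. The red points are below the blue ones in every gene shown; for Lyz2 the means are 112 and 1345, with the control vector at 5391.

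Transcription factors of the myeloid lineage changed with these genes. Of the 13 measured factors 8 rose and 0 fell, with a median of 0.56, against 3.04% of all genes higher. Irf8, which steers progenitors to monocytes and dendritic cells, was 68.9, 53.04 and 69.5 with MEIS1-WT, 305, 329.6 and 384 with M33-MEIS1 and 282, 240.3 and 359 with MIY-ctrl. It was above all MEIS1-WT arrays and within or above the control range (log2 difference 2.16 ± 0.13, adjusted p = 6.52e-09). Cebpd, Cebpb and Klf4, factors of granulocyte and monocyte maturation, rose by 1.25, 0.75 and 1.05, and Spi1, which codes for PU.1, by 0.61 from 291 ± 21.1 to 453 ± 19.1. Cebpd and Klf4 each passed on 1 of 2 probe sets. Id2, an inhibitor of E proteins, rose by 1.65, and 2 of its 3 probe sets passed as higher. The probe set of the kind without shared probes did not pass (log2 difference 0.18, adjusted p = 0.754). Cebpa, at 399 ± 13.9 and 466 ± 14.5, did not pass (adjusted p = 0.133). Tfec and Mitf, looked at as a family after their values were seen, also rose: Tfec was 199, 171 and 168 with MEIS1-WT and 753, 691 and 684 with M33-MEIS1, without overlap.

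Mast cell and basophil genes were higher with M33-MEIS1. Of the 17 measured genes 13 rose and 0 fell, with a median of 1.18, against 3.04% of all genes higher. Their summed signal was 6714 to 7309 on the MEIS1-WT arrays and 10496 to 12253 on the M33-MEIS1 arrays, with means of 9595 in MIY-ctrl and 7911 in MEIS1-deltaHD. The culture medium held IL-3 and stem cell factor, both growth factors of mast cells, for all groups. The M33-MEIS1 mean was above that of the control vector for each gene that rose except Fcer1a and Mitf. That difference from MIY-ctrl did not pass for Gzmb, Cpa3, Tpsb2 and Cma1 (adjusted p = 0.733, 0.224, 0.345 and 0.0579). It passed for Mcpt2, Mcpt8, Tpsab1, Cd200r3 and Hdc. Srgn, the granule proteoglycan, is in this list and in the primary granule list, and did not pass.

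Gzmb, a granzyme found in cytotoxic cells and also in mouse mast cells, was 224, 178 and 214 with MEIS1-WT, 894, 946 and 1157 with M33-MEIS1 and 225, 201 and 349 with MEIS1-deltaHD. The M33-MEIS1 arrays were above both sets and within the spread of the control vector, at 984, 1183 and 651 (log2 difference from MEIS1-WT 2.20 ± 0.19, adjusted p = 7.86e-07). The T and NK cell genes of another list had no member with a mean signal above 100. Cpa3, the mast cell carboxypeptidase, was 890.1, 793 and 855 with MEIS1-WT and 1926, 1867 and 2024 with M33-MEIS1, and Mcpt8, the basophil protease, 331, 345 and 349 with MEIS1-WT and 865, 899.7 and 945 with M33-MEIS1. Neither overlapped between the constructs (log2 differences 1.18 ± 0.12 and 1.36 ± 0.07). Mcpt8 was also above the control vector, at 375 ± 12.8. The subunits Fcer1a and Ms4a2 of the IgE receptor rose by 1.38 and 1.14, and the mast cell proteases Tpsab1, Tpsb2, Cma1 and Mcpt2 by 1.45, 1.26, 1.35 and 1.95.

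**Figure D4:**
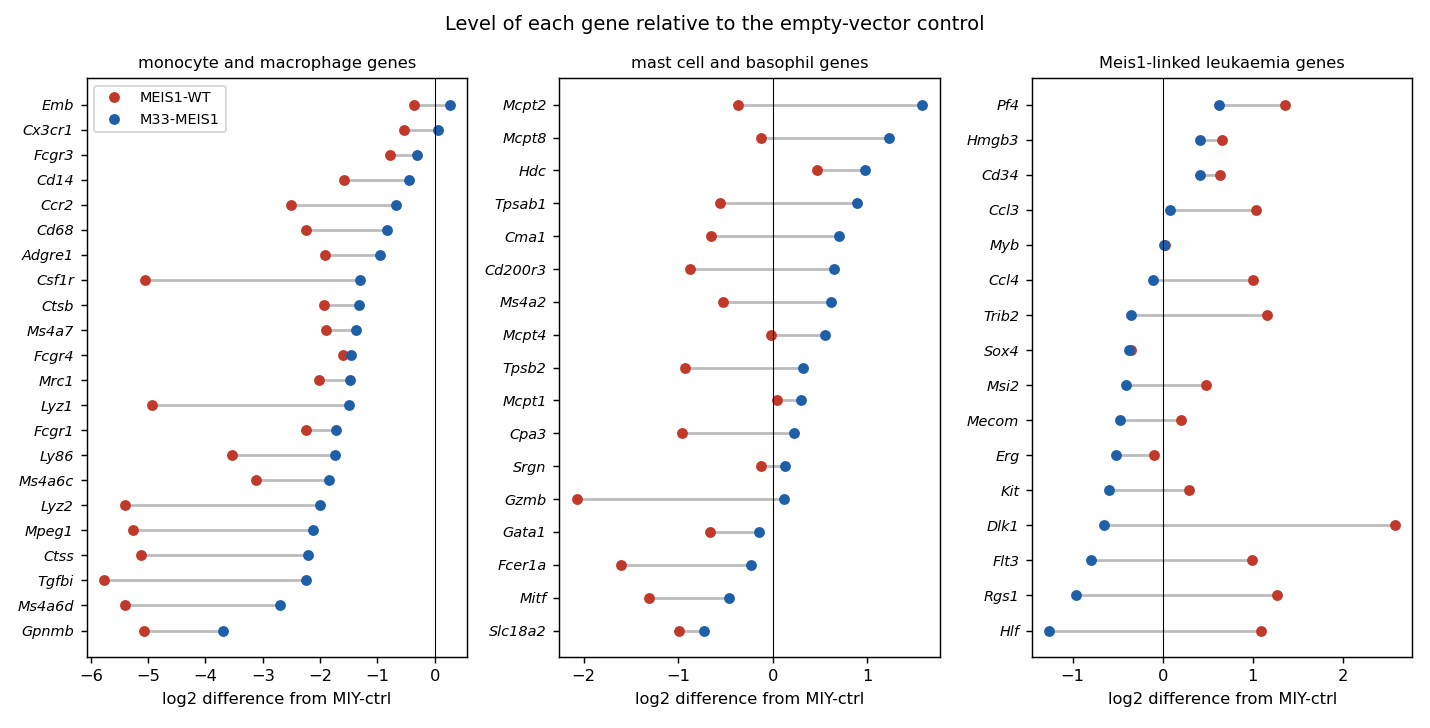
Log2 difference from MIY-ctrl (horizontal axis) with MEIS1-WT (red) and with M33-MEIS1 (blue) for each gene of 3 lists, joined by a line. Blue lies right of red for all monocyte and mast cell genes shown, with Csf1r at -5.06 and -1.30, and left of red for most of the Meis1-linked genes, with Dlk1 at 2.58 and -0.65; both colours share the control arrays.

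Several receptors of chemokines and cytokines were higher. Of 19 measured, 10 rose (9 to 11 under the alternatives) and 2 fell, the latter being Flt3 and Kit, against 3.04% of all genes higher and 1.61% lower. Ccr1 was 102, 72.9 and 103 with MEIS1-WT and 443, 449 and 492 with M33-MEIS1, and Ccr2, the receptor of inflammatory monocytes, 144, 119 and 119 with MEIS1-WT and 527, 512 and 446 with M33-MEIS1. Both were separate between the constructs (log2 differences 2.15 ± 0.11 and 1.83 ± 0.11). The subunits of the GM-CSF and IL-3 receptors, Csf2ra, Csf2rb and Csf2rb2, rose by 1.04, 0.76 and 1.13, and Il1r2, Il6st, Il10ra and Fpr2 by 1.52, 1.33, 1.22 and 0.73. Csf2rb and Csf2rb2 are close copies of each other and their probe sets may share signal.

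Of 22 chemokines and cytokines in a list without Ccl3 and Ccl4, 3 rose and 0 fell, against 3.04% of all genes higher. Ccl6, a chemokine of mouse myeloid cells, was 47.9, 36.8 and 34.9 with MEIS1-WT and 472, 408 and 588 with M33-MEIS1. Ccl9, of the same mouse gene cluster, was 1203, 885 and 1062 with MEIS1-WT and 2272, 1985 and 2349 with M33-MEIS1. Both rose without overlap (log2 differences 3.17 ± 0.12 and 1.06 ± 0.10), in the direction opposite to Ccl3 and Ccl4, which lie on the same chromosome. Il6 went from 48.6 ± 7.52 to 131 ± 17.4 (adjusted p = 0.000781).

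Several immediate early genes, which growth factor or stress signals induce quickly, were lower. Of 25 genes, all measured, 11 fell and 0 rose, against 1.61% of all genes lower, with a median of -0.34. Their summed signal was 4521 to 4769 on the MEIS1-WT arrays, 3041 to 3096 on the M33-MEIS1 arrays and 6360.4 on average in MIY-ctrl. The count was 7 without MEIS1-WT replicate 1, 6 without M33-MEIS1 replicate 1 and 8 to 9 without any other array, and 6 without an intensity trend.

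Egr1, a zinc finger factor downstream of ERK signalling, was 448, 365 and 448 with MEIS1-WT, 115, 111 and 123 with M33-MEIS1 and 158, 151 and 224 with MEIS1-deltaHD. It was lower than every MEIS1-WT array and every MIY-ctrl array, at 433, 793 and 398 (log2 difference -1.71 ± 0.19, adjusted p = 1.41e-05). Jun, a subunit of AP-1, was 285, 246 and 301 with MEIS1-WT and 106, 154 and 112 with M33-MEIS1, and Spry2, an inhibitor of receptor tyrosine kinase signalling, 218, 191 and 168 with MEIS1-WT and 102, 75.6 and 69.7 with M33-MEIS1. The groups were separate in both (log2 differences -1.08 ± 0.15 and -1.09 ± 0.15). Jun, Spry2 and Egr3 each passed on 1 of 2 probe sets. Egr3 fell by 1.55, Klf6 by 0.80 and Ier2 by 0.47 on the log2 scale, and the rest that passed were Nr4a1, Nr4a2, Dusp1, Dusp6 and Zfp36. Of 21 RGS genes, looked at after Rgs1 was seen, Rgs1 and Rgs2 fell and 0 rose; Rgs2 was 1001, 955 and 956 with MEIS1-WT and 418, 371 and 336 with M33-MEIS1. Of 15 NF-kB targets, Traf1, a TNF receptor adaptor, and Ptgs2, the inducible cyclooxygenase, fell by 1.15 and 1.06 and Tnfaip2 rose by 0.59. The count of these targets that fell was 1 without MEIS1-WT replicate 1 or 2 or M33-MEIS1 replicate 2 and without an intensity trend. Traf1 and Ptgs2 each passed on 1 of 2 probe sets. The background for the RGS and NF-kB counts is 3.04% of all genes called higher and 1.61% called lower.

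Mycn, a MYC family factor of progenitors, had the lowest level with M33-MEIS1. The brightest of its 3 probe sets was 4066, 3449 and 3998 with MEIS1-WT, 1631, 1661 and 1878 with M33-MEIS1, 7178, 6733 and 6331 with MIY-ctrl and 5961, 6627 and 6759.5 with MEIS1-deltaHD. The M33-MEIS1 arrays were below all other arrays of the series (log2 difference from MEIS1-WT -1.15 ± 0.09, adjusted p = 1.51e-07; from MEIS1-deltaHD -1.89, adjusted p = 1.04e-09). The second Mycn probe set gave another order, with 591 ± 30.97 in MEIS1-WT, 309 ± 89.1 in M33-MEIS1, 413 ± 89.9 in MIY-ctrl and 328 ± 26.7 in MEIS1-deltaHD. It passed against MEIS1-WT (log2 difference -0.94 ± 0.17, adjusted p = 0.00225) and not against MEIS1-deltaHD (adjusted p = 0.896). The third was at -0.49 ± 0.18 (adjusted p = 0.203). Of the 23 genes of the Myc network and ribosome biogenesis list, Mycn and Mnt fell and Mlx, a MAX-like factor, rose from 159 ± 2.66 to 244 ± 23.3. Over all genes 3.04% were called higher and 1.61% lower. Mnt and Mlx each passed on 1 of 2 probe sets.

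M33-MEIS1 and MEIS1-deltaHD differed in few genes. Of 18193 genes 53 passed (0.291%), 50 higher and 3 lower with M33-MEIS1. The 3 lower genes were Mycn, Ift27 and Atp5g1. By list, 8 of 22 monocyte and macrophage genes and 7 of 17 mast cell and basophil genes were higher with M33-MEIS1 than with MEIS1-deltaHD, 1 of 16 Meis1-linked genes (Pf4) was higher and 0 of the 13 myeloid factors, 11 primary granule genes and 25 immediate early genes passed. The M33-MEIS1 arrays enter this comparison and the one with MEIS1-WT, and a gene that misses the threshold is not shown to be alike.

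Gzmb had the largest difference from MEIS1-deltaHD, 1.92 on the log2 scale (adjusted p = 6.31e-05). Cma1, the mast cell chymase, was 289, 252 and 227 with M33-MEIS1 against 80.4, 43.4 and 96.8 with MEIS1-deltaHD, and Tpsab1, a tryptase, 61.3, 61.8 and 72.5 against 8.17, 12.7 and 20.4. Both were separate (log2 differences 1.65 and 1.47, adjusted p = 0.00602 and 0.00246). Cpa3, Mcpt8 and Hdc, the enzyme that makes histamine, differed by 0.99, 0.83 and 0.67. Among the monocyte genes and chemokines, Ccl6 differed by 1.63, Tgfbi by 1.09, Lyz2 by 1.07, Ctss by 1.05 and Csf1r by 0.56. Side by side, Lyz2 was 5391 ± 119 with MIY-ctrl, 1345 ± 114 with M33-MEIS1, 629.8 ± 22.5 with MEIS1-deltaHD and 112 ± 13.02 with MEIS1-WT, and Cpa3 1689 ± 400.2, 1939 ± 79.5, 966 ± 64.03 and 846 ± 49.5.

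Genes of the division cycle gave no call. Of 21 G1/S genes and 21 G2/M genes 0 passed, with log2 differences from -0.21 to 0.11 and from -0.07 to 0.31, and with 1 and 3 genes at an unadjusted p below 0.05. The 95% intervals of the single genes lay between -0.53 and 0.33 for G1/S and between -0.30 and 0.58 for G2/M. For the D cyclins, their kinases and the CDK inhibitors 0 of 14 passed in limma, 2 had an unadjusted p below 0.05, and the range was -0.26 to 0.29. Nusap1, a spindle protein of the G2/M list, was the exception under an alternative, at 0.31 with an adjusted p of 0.219 over 12 arrays and 0.0323 over 6 arrays.

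Hoxa and Polycomb genes also gave none. Of 9 Hoxa genes 0 passed (4 at an unadjusted p below 0.05), and Hoxa9, the HOX gene most often linked with MEIS1 in leukaemia, was 1877, 1881 and 1837 with MEIS1-WT and 1651, 1734 and 1568 with M33-MEIS1. These Hoxa9 arrays did not overlap, but the difference of -0.18 ± 0.07 did not pass (adjusted p = 0.236). Of 17 genes of Polycomb complex 1 and 11 of complex 2, 0 and 0 passed on the probe set read for each gene (the dimmer Cbx2 probe set did), with 5 and 1 at an unadjusted p below 0.05, and Bmi1, Rnf2 and Ezh2 were at -0.21 ± 0.08, -0.08 ± 0.08 and -0.05 ± 0.07. Phc1 at -0.49 (adjusted p = 0.123) passed without M33-MEIS1 replicate 3 (adjusted p = 0.0286), and Yaf2 at -0.24 (adjusted p = 0.0659) as the mean of its probe sets (0.0242). Of 10 TALE genes, Pknox1 and Tgif2 fell, by 0.60 and 0.59 on the log2 scale, Tgif2 without passing as the mean of its probe sets (adjusted p = 0.0984). Without MEIS1-WT replicate 1 or 3 or M33-MEIS1 replicate 1 or 2, 1 of the TALE genes passed. Of 17 stem and progenitor cell genes 4 fell, Angpt1 by 0.64, Gfi1b by 0.77, Cd93 by 0.51 and Mycn by 1.15, and Ikzf2 rose by 0.46. As the mean of its probe sets Ikzf2 was at 0.28 and did not pass (adjusted p = 0.212). The background for these lists is 3.04% of all genes called higher and 1.61% called lower.

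Metabolic and stress lists gave few calls, where 3.04% of all genes were called higher and 1.61% lower. Of 18 cholesterol synthesis genes 1 fell, Cyp51 at -0.36 ± 0.08, of 21 hypoxia and glycolysis genes and 16 heat shock genes 0 passed (4 and 3 at an unadjusted p below 0.05), of 20 ATF4 genes Ddit4 fell and Cebpb rose, and of 15 p53 targets Perp rose and Bbc3 fell. Hsph1, of the heat shock list, was at -0.19 on its brighter probe set (adjusted p = 0.215) and at -0.30 on the other, which passed (adjusted p = 0.0387). Of the members of these lists that did not pass on the probe set read for them, Hmgcs1, Idi1, Egln3 and Sesn1 likewise had another probe set that passed as lower. Bcl2l11, which codes for the death protein BIM, rose from 82.9, 91.5 and 71.98 with MEIS1-WT to 141, 150.1 and 182 with M33-MEIS1 without overlap (log2 difference 0.82 ± 0.11, adjusted p = 0.000213). Of its 5 probe sets 2 passed as higher. Bbc3, which codes for PUMA, was 167, 176 and 209 with MEIS1-WT and 106, 127 and 152 with M33-MEIS1 (log2 difference -0.47 ± 0.12, adjusted p = 0.0372). The Bbc3 call was lost with 64 added before log2 (adjusted p = 0.0511), with the 6 arrays alone (0.0987), without an intensity trend (0.126) and without MEIS1-WT replicate 2 or 3 or M33-MEIS1 replicate 1 or 2.

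Interferon-response genes were low with both constructs, and also with MEIS1-deltaHD, against MIY-ctrl. Of 22 measured, 3 were called higher with M33-MEIS1, against 3.04% of all genes. The summed signal of the list was 992 to 1113 with MEIS1-WT and 1116 to 1427 with M33-MEIS1. It was 946 on average with MEIS1-deltaHD and 13105 with MIY-ctrl. The 3 were Oas1a at 77.4 ± 10.2 and 121 ± 21.02, with 1202 ± 229 in the control, Slfn4 at 14.9 ± 8.97 and 39.7 ± 6.96, with 1475 ± 298, and Dhx58 at 5.33 ± 3.24 and 20.8 ± 4.30, with 183 ± 44.9. None of the 22 passed with 64 added before log2 or with the 6 arrays alone, and 1 passed without MEIS1-WT replicate 2, without M33-MEIS1 replicate 3 and without an intensity trend. Of 3 Dhx58 probe sets 1 passed.

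Markers of other cell types were mostly at low signal. None of the 14 B cell and 12 T and NK cell genes passed, none had a mean above 100 and 0 had an unadjusted p below 0.05. Of 12 erythroid genes Car2, a carbonic anhydrase, fell, of 17 megakaryocyte genes Pf4 and Slc35d3 fell (1 of them where the Pf4 call was lost), and of 6 eosinophil genes Siglecf rose from 76.2 ± 15.1 to 141 ± 26.4. Of 15 dendritic cell and class II genes Flt3 fell and Cd74, the class II invariant chain, rose from 30.2, 33.5 and 18.1 with MEIS1-WT to 68.99, 76.7 and 125 with M33-MEIS1, with 272 ± 33.4 in MIY-ctrl. The fibroblast list, drawn up because the virus producers were fibroblasts, had 1 of 19 genes higher, Thbs1, which monocytes also make, and summed to 511 to 619.8 with MEIS1-WT and 551 to 646 with M33-MEIS1. The background for the counts of these cell types is 3.04% of all genes called higher and 1.61% called lower.

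The calls of 12 of the named genes were lost when 1 array was left out. Bbc3, Dhx58, Oas1a, Pknox1, Pf4 and Ptgs2 lost theirs in 4 of 6 such fits, with an adjusted p of up to 0.174, 0.148, 0.177, 0.116, 0.153 and 0.0944. Car2, Cyp51, Mnt and Siglecf lost theirs in 3 (up to 0.118, 0.0649, 0.0713 and 0.0665), and Ddit4 and Slfn4 in 2 (up to 0.0824 and 0.0652). MEIS1-WT replicate 1 was among the arrays concerned for Dhx58, Pknox1, Pf4, Ptgs2, Car2, Mnt and Slfn4, replicate 2 for Bbc3, Dhx58, Oas1a, Ptgs2, Cyp51 and Mnt, and replicate 3 for Bbc3, Oas1a, Pknox1, Pf4, Car2, Cyp51, Siglecf and Ddit4. M33-MEIS1 replicate 1 was among them for Bbc3, Pknox1, Pf4, Ddit4 and Slfn4, replicate 2 for Bbc3, Dhx58, Oas1a, Pknox1, Pf4, Ptgs2, Car2, Cyp51, Mnt and Siglecf, and replicate 3 for Dhx58, Oas1a, Ptgs2 and Siglecf. Csf1r, Lyz2, Tgfbi, Ctss, Mpeg1, S100a9, Elane, Gzmb, Dlk1, Trib2, Flt3, Kit, Hlf, Rgs1, Ccl3, Ccl4, Egr1 and Mycn kept their calls in all 6 fits.

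**Figure D5:**
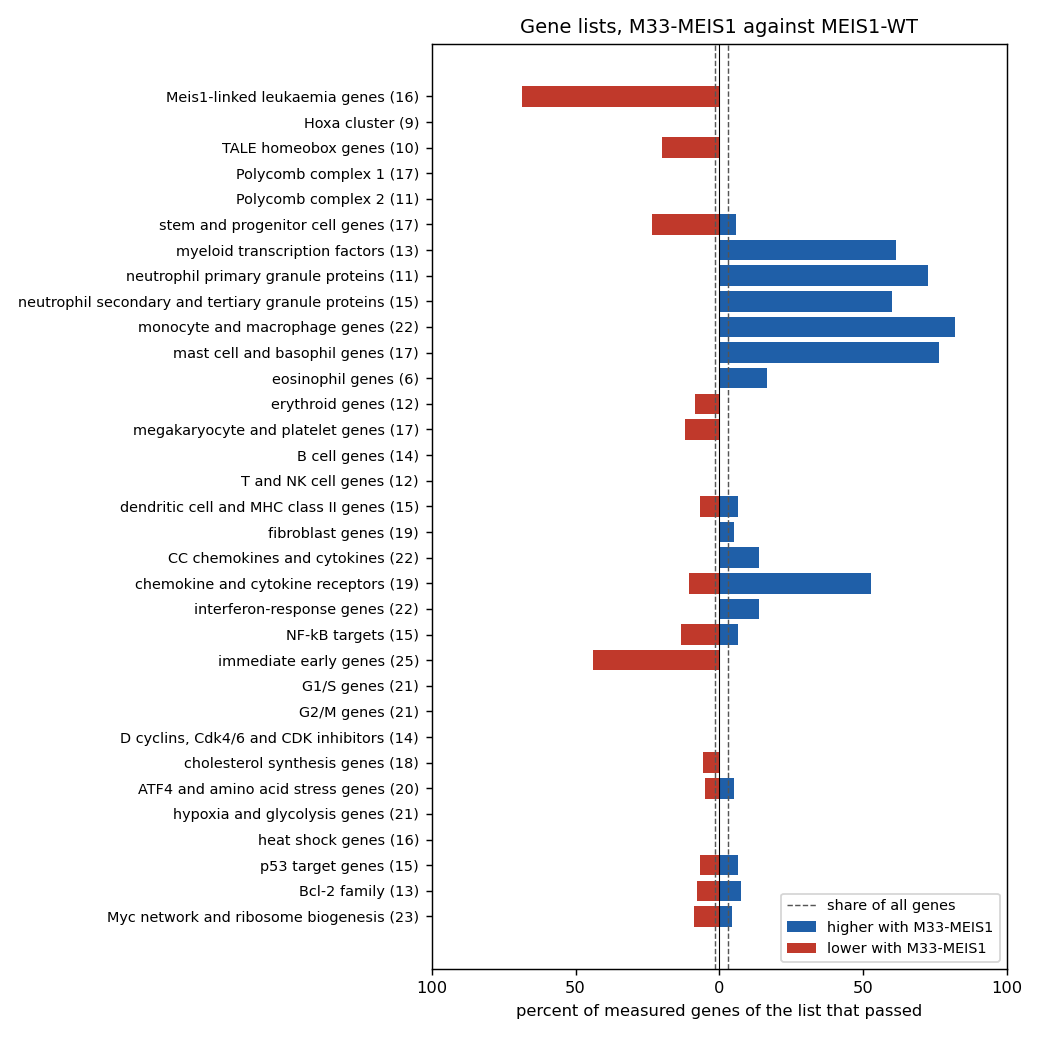
Percent of the measured genes of each list that passed as higher (blue, to the right) or lower (red, to the left) with M33-MEIS1, with the number measured in brackets; dashed lines mark the 3.04% and 1.61% of all genes. The longest bars are those of the monocyte, mast cell and primary granule lists to the right and of the Meis1-linked list to the left.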

How the data were processed

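Expression was measured on 12 Affymetrix arrays, 3 for each of 4 groups, grouped by their titles. The deposited values are array intensity, a signal per probe set from GCOS 1.2 per the submitters' processing notes; on each array the mean without the lowest and highest 2% was 100, as computed from the values. How probes were background-corrected and summarised is not stated by the labels, and no detection call was used.

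The 64 control probe sets were left out, 16 was added before log2, and no filter was applied. Symbols came from the platform annotation: 34945 probe sets carried 1 symbol, 932 several and 9160 none, and a lookup of 34754 by Entrez ID changed 0. A gene was read from its probe set with the highest mean over 12 arrays, which mattered for 9010 of 18193 genes. One model with 4 groups was fitted to all 12 arrays (limma 3.58.1 under R 4.3.3, linear model with moderated variances that follow the mean signal, 8 residual degrees of freedom), two-sided, with Benjamini-Hochberg adjustment. The script was tested on simulated data. Replicate numbers gave no sign of pairing the arrays and were not used as a block.

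The members and the 33 gene lists (590 entries, 538 measured) were chosen with earlier results of these data known. Genes were named by a rule: the 15 largest rises and falls that passed without overlap of the arrays, the genes of the constructs and of the series title, and up to 4 passing members per direction of each list, or the 2 with the smallest p where none passed. Other members of the lists are named beside their list's count, and the RGS, TFEC and MITF and Dlk1-Meg3 genes and those that differed from MEIS1-deltaHD were chosen after their values were seen. Alternatives changed the number added, the filter (above the 40th percentile on 3 arrays), the normalization, the arrays fitted, the block, the trend and the probe set per gene.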

Additional observations from a re-analysis of the deposited data

How the results depend on the processing

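The count of probe sets that passed was 1432. It was 1584 with 1 and 1333 with 64 added before log2, 1759 among the 31762 probe sets left by a filter on dim values, 1443 after quantile normalization, 1210 after median scaling, 1096 from the 6 arrays alone, 989 without an intensity trend, and 1002 to 1174 with 1 array left out. With the replicate number as a block it was 1338. The deviations of same-numbered MEIS1-WT and M33-MEIS1 arrays correlated at -0.035, 0.021 and -0.014. This gave no sign of pairing, but a correlation over all probe sets cannot exclude pairing that touched few genes. The shift of the median of all probe sets was between -0.0094 and 0.0039 on the log2 scale in these 14 alternatives.

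Of the immediate early genes 11 fell, 6 without an intensity trend and 6 to 9 with 1 array left out. Over the alternatives the monocyte list kept 17 to 18 higher, the mast cell list 11 to 14, the primary and later granule lists 7 to 9 and 9 to 10, the myeloid factors 7 to 8, the receptors 9 to 11 and the Meis1-linked list 10 to 13 lower. Several lists with few calls moved by more than 1.5 times. Among them the interferon list had 0 to 4 higher (3 as reported). The TALE, NF-kB and megakaryocyte lists had 1 to 2, 1 to 3 and 1 to 2 lower (2 each). For the Myc list it was 1 to 3 lower (2), and for the cholesterol, ATF4 and p53 lists 0 to 2 (1 each). The chemokine and cytokine list had 0 to 2 lower (0). In the Bcl-2 and erythroid lists 0 to 1 fell, and in the eosinophil list 0 to 1 rose (1 each).

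Of 103 named genes 80 passed; 59 of these kept their call in all 16 alternatives and 21 lost it in at least 1. With probe sets without shared probes Lyz1 was at -0.018 (adjusted p = 0.989) and Plagl1 at 0.40 (adjusted p = 0.455), and with the mean of all probe sets Cbx2 was at 0.67 (adjusted p = 0.00371) against -0.02 from its brightest one. In each case the probe set read is what differs. As means of their probe sets Mnt, Egr3, Tgif2, Ikzf2, Dhx58, Cyp51 and Plagl1 did not pass, with Mnt at -0.04 and Egr3 at -0.76 (adjusted p = 0.941 and 0.101). Low signals limit Trib2, Tpsab1 and Ly86, whose differences are compressed by the added 16.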

Other observations

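Families looked at after the values were seen are given as values only. Of 17 Ms4a membrane protein genes 7 were higher with M33-MEIS1 and 0 lower, with a median log2 difference of 0.37, against 3.04% of all genes higher. Ms4a4c was 17.4, 6.60 and 8.41 with MEIS1-WT, 77.3, 61.5 and 71.2 with M33-MEIS1 and 1057 ± 290.0 (mean ± SD) with MIY-ctrl, and Ms4a6b 14.1, 16.3 and 20.3, 77.3, 68.4 and 82.6 and 676 ± 137. Both constructs were thus far below the control vector, with no overlap between them. Ms4a3, which granulocyte and monocyte progenitors express, had another order, with 1073 ± 346 in MIY-ctrl, 1653 ± 33.1 with MEIS1-WT, 3667 ± 298 with M33-MEIS1 and 3866 ± 284 with MEIS1-deltaHD.

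Of 26 C-type lectin genes 4 were higher and 0 lower, against the same 3.04% of all genes, namely Clec4n (log2 difference 2.20 ± 0.18), Clec7a, the receptor for fungal glucan (2.03 ± 0.14), Clec5a (1.77 ± 0.11) and Clec4a2 (1.69 ± 0.20). Of 11 Toll-like receptor genes 3 were higher and 0 lower, against 3.04% as well: Tlr2 was 50.03, 68.4 and 76.5 with MEIS1-WT and 256, 260.5 and 342 with M33-MEIS1, without overlap, and Tlr4 and Tlr6 were at 0.68 ± 0.12 and 0.69 ± 0.16. All adjusted p-values of these genes were at or below 0.0198, from limma with Benjamini-Hochberg adjustment.

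Mycn was read by probe sets with different orders of the groups. On the brightest, MEIS1-deltaHD was at 6449 ± 428 and M33-MEIS1 at 1724 ± 135, and on the second they were at 328 ± 26.7 and 309 ± 89.1. What the brightest probe set reads beyond the second was not tested.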
